A study of Mus musculus with 69 samples.

Results

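A set of 8 genes for potassium channels and sodium or proton pumps of the distal nephron were followed through newly made and total kidney RNA of the mouse: Kcnj1, Kcnj10, Kcnj16, Kcnma1, Atp1b1, Fxyd2, Fxyd4 and Atp12a. They were taken by symbol from a table of 24411 genes, all 8 were present and all 8 were among the 21175 genes tested. The data were read counts of 69 libraries, with 12618062 to 30305464 reads counted per library. All mice carried 1 copy of Toxoplasma gondii Uprt, an enzyme that lets a cell build 4-thiouracil (4-TU) into its RNA, behind a floxed stop in the Rosa26 locus (UPRTf/+), opened by Hoxb7Cre or by the driver that the labels spell Atp6b1v1Cre. All mice received 430 mg/kg of 4-TU 4 hours before the kidney was removed, and the strain background was not stated in the labels. Labelled RNA was biotinylated and captured on streptavidin beads ("pulldown"), and 1 kidney gave 1 pulldown. Hoxb7Cre is active in the collecting duct, in principal and intercalated cells, and the Atp6v1b1 promoter is active mainly in intercalated and connecting tubule cells, so a pulldown holds RNA of more than 1 cell type.

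The control mice gave 10 Hoxb7 pulldowns, 11 Atp6b1v1 pulldowns and 21 libraries of total kidney RNA, in both sexes. Most were 5.5 months old, and 2 female Hoxb7 pulldowns, 3 male Atp6b1v1 pulldowns and 5 total RNA libraries came from mice of 3 months. Injured mice were all 5.5 months old. In iAKI the kidney underwent 10 minutes of ischemia and was taken 24 hours later (4 male and 3 female Hoxb7 pulldowns, 3 male and 3 female Atp6b1v1 pulldowns). In vAKI the mice were volume depleted by 72 hours of restricted food and water (3 male and 4 female Hoxb7 pulldowns, 4 male and 3 female Atp6b1v1 pulldowns). A pulldown differs from total RNA both in the cells that carry Uprt and in holding RNA made within hours, and these cannot be told apart. In bulk RNA, fewer cells of a type and less RNA per cell cannot be told apart either.

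Potassium leaves the body mainly through the collecting system. Sodium enters principal cells from the tubule fluid, the sodium pump (Na,K-ATPase) moves it on into the blood in exchange for potassium, and potassium passes into the urine through apical channels. Kcnj1 encodes ROMK, the apical channel of principal cells and of the thick ascending limb, and Kcnma1 the pore of the BK channel, which opens with calcium and fast flow. Kcnj10 (Kir4.1) and Kcnj16 (Kir5.1) together form the basolateral potassium channel of the distal convoluted tubule and collecting duct, which sets the membrane voltage. Atp1b1 is the beta subunit of the sodium pump, and Fxyd2 (the gamma subunit) and Fxyd4 (CHIF) are small proteins that tune its affinity, Fxyd4 in the collecting duct. Atp12a is the catalytic subunit of the colonic H,K-ATPase, which reclaims potassium in exchange for protons.

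On mouse build mm10 with GENCODE M21 gene models, Kcnj1 spans positions 32372493 to 32399197 of chromosome 9 on the plus strand and Kcnj16 positions 110968033 to 111027968 of chromosome 11, plus strand. Kcnj10 lies on chromosome 1 at 172341210 to 172374085, plus strand, and Atp1b1 on the same chromosome at 164437109 to 164458355, minus strand. Fxyd2 lies on chromosome 9 at 45399669 to 45410278, plus strand, and Fxyd4 on chromosome 6 at 117933559 to 117937692, minus strand. Atp12a and Kcnma1 both lie on chromosome 14, at 56365068 to 56388550 on the plus strand and at 23289431 to 24014491 on the minus strand. HTSeq was run with default settings on libraries of a kit that, as described, does not mark strand, and 14.1% of the exon bases of Atp12a, 7.44% of Atp1b1 and 7.87% of Kcnma1 are shared with Gm10873, Nme7 and 4930519K11Rik on the opposite strand, so reads there cannot be told apart by strand.

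Kcnj1, Kcnj10 and Kcnj16 rose and fell together across the pulldowns, as described below, and the 250 bases before their annotated start are shown for that reason (RefSeq starts on GRCm38.p6, 5′ to 3′). For Kcnj16, which has 4 starts in the table, the most upstream is given. The RefSeq start of Kcnj1 differs from the start of its GENCODE gene model, so its window lies inside the span given above. Capitals mark the letters AGAACA or, on the other strand, TGTTCT, a half-site of the glucocorticoid and mineralocorticoid receptors.
Kcnj1, chr9:32393735-32393984, plus strand: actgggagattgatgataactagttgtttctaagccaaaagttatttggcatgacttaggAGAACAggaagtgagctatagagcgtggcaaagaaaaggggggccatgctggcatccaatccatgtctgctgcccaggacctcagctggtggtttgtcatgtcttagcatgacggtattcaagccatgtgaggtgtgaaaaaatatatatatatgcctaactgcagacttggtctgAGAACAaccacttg
Kcnj10, chr1:172340960-172341209, plus strand: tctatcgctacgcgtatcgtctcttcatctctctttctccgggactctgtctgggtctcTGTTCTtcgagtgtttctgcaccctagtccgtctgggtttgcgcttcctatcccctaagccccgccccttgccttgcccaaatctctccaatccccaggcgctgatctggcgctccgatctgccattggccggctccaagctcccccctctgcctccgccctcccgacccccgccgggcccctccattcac
Kcnj16, chr11:110967783-110968032, plus strand: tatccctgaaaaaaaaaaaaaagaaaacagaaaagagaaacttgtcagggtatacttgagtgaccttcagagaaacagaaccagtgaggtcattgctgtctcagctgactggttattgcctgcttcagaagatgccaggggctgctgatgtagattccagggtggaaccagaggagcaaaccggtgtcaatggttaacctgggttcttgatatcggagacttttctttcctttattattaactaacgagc
The Kcnj1 window holds 2 of these half-sites, the Kcnj10 window 1, and the printed Kcnj16 window none. Of 32851 mouse promoter windows of 250 bases, 16.1% hold it. Of the other motifs searched on both strands, TATAAA (12.4% of all windows), GTAAACA (3.17%), CACGTG (6.02%) and TTATGTAA (0.819%), none is in the 3 printed windows. A match of this kind is a description of the letters and was not tested for binding. Promoters were matched for 6 of the 8 genes, and Fxyd2 and Atp12a had none in the table.

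Some facts of the whole series bear on the values. The 7 principal cell markers (Aqp2, Aqp3, Aqp4, Avpr2, Hsd11b2, Scnn1b, Scnn1g) summed to 1134 to 3615 counts per 1000000 (CPM) in control Hoxb7 pulldowns and 781 to 1387 in total RNA, and 6 of 7 were higher in the Hoxb7 pulldown by the test. The 7 intercalated cell markers summed to 801 to 1884 CPM in control Atp6b1v1 pulldowns and 402 to 691 in total RNA, and 6 of 7 were higher. Markers of the proximal tubule (5 genes, 1398 to 3819 and 1187 to 3765 CPM) and of the thick ascending limb (4 genes, 981 to 2408 and 767 to 2188 CPM) were present in both pulldowns. In total RNA these sums were higher without overlap, at 7109 to 14642 and 5645 to 11019 CPM. A pulldown thus also held RNA of genes that mark segments outside the collecting duct. Libraries carry running numbers, which were split for this report at their widest gaps into 3 series (A, B and C, in rising order). The letters are not part of the labels. The labels do not say whether the libraries of a series were prepared or sequenced together, so a series is only a possible batch. All injured Hoxb7 pulldowns are in series A. The libraries labelled vAKI Hoxb7 females 1, 2 and 3 stood apart from the other vAKI libraries. In these 3 the clock and glucocorticoid-responsive gene Per1 was at 186 to 292 CPM, within the range of control pulldowns (106.3 to 559), while vAKI Hoxb7 female 5 had 1679 and the 3 males 1047 to 1253. Zfp36, an mRNA decay factor induced by stress, was at 57.2 to 189 CPM in them, at 22.7 to 205 in control pulldowns, at 722 in female 5 and at 516 to 652 in the males. The 7 vAKI Atp6b1v1 pulldowns had 407 to 1617 CPM of Per1, above these 3 libraries, and 150 to 1005 of Zfp36, which overlaps them. The treatment labels of these 3 libraries are thus uncertain by Per1 and, against the other vAKI Hoxb7 libraries, by Zfp36. Results that rest on these females are given with and without them.

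In the control mice, most of the 8 genes differed between pulldown and total RNA. Fxyd2 and Fxyd4, the pump's small regulators, and Atp1b1 and Kcnj16 were lower in pulldown than in total RNA, and Kcnj10 and Atp12a were higher. Fxyd4 was the member that separated the drivers. These levels are shown by library in the plot of the control groups.

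**Figure D1:**
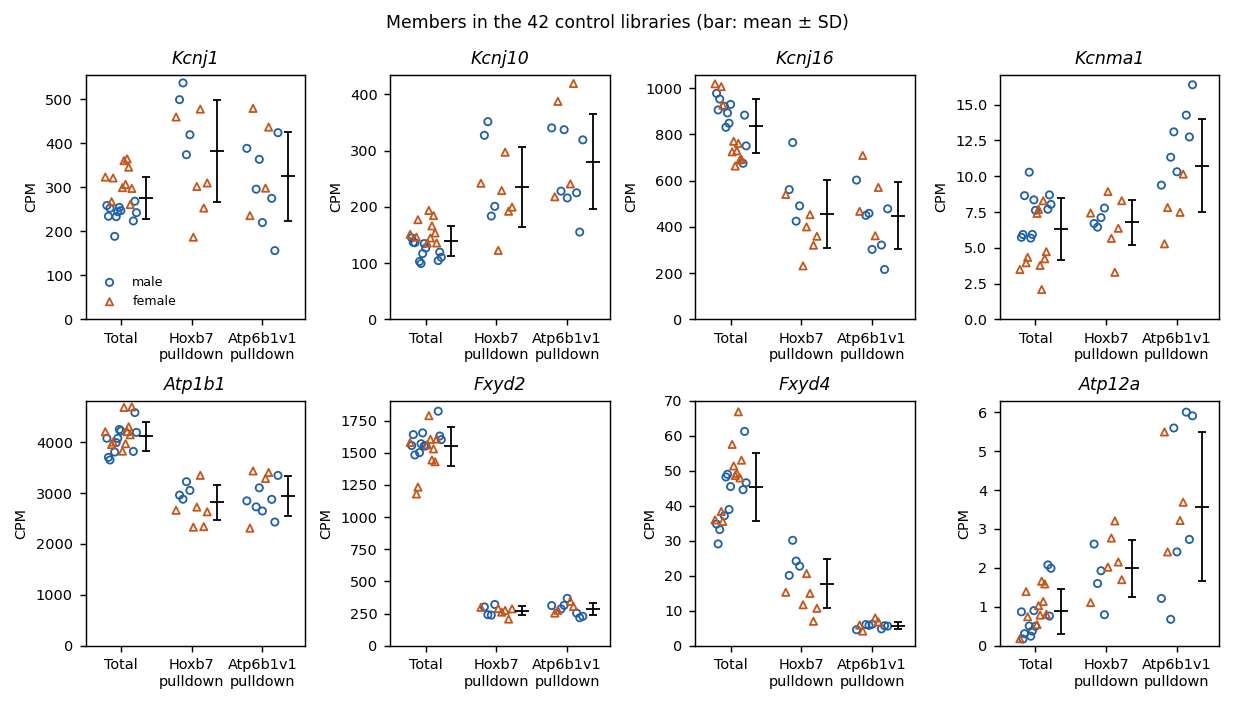
CPM of the 8 genes (one panel each, linear axis from 0) in the 42 control libraries, by total RNA, Hoxb7 pulldown and Atp6b1v1 pulldown; circles are males, triangles females, and the black bar is the mean ± SD. Fxyd2 lies at 1179 CPM or more in every total RNA library and at 368 or less in every control pulldown, while Kcnj1 overlaps between all 3 groups.

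Of the apical channels, Kcnj1 ranged from 188.5 to 364 CPM in total RNA (median 261, n = 21), from 187 to 537 in Hoxb7 pulldowns (median 397, n = 10) and from 156 to 479 in Atp6b1v1 pulldowns (median 298, n = 11). The groups overlapped. Kcnj1 was 1.43-fold higher in Hoxb7 pulldown than in total RNA (log2 fold change 0.51 ± 0.13 SE, adjusted p = 0.000788) and 1.23-fold higher in Atp6b1v1 pulldown (0.30 ± 0.13, adjusted p = 0.0436; edgeR's quasi-likelihood test, with p-values adjusted over all genes tested by Benjamini-Hochberg, here and throughout). The Hoxb7 difference was 0.95 in males (adjusted p = 7.03e-06) and 0.12 in females (0.557), and within series A, B and C it was 1.02, 0.30 and -0.16, with adjusted p = 3.54e-05, 0.17 and 0.69. The Atp6b1v1 difference was 0.47, 0.06 and 0.34 within the same series, passing in A (adjusted p = 0.0175). Kcnma1 was a low gene in all groups, at 6.31 ± 2.17 CPM in total RNA (SD, n = 21), 6.80 ± 1.57 in Hoxb7 pulldown and 10.8 ± 3.25 in Atp6b1v1 pulldown. It was higher in Atp6b1v1 pulldown than in total RNA (log2 fold change 0.75 ± 0.15, adjusted p = 1.57e-05), with 0.62, 0.69 and 0.84 within the series (adjusted p = 0.0111, 0.0611 and 0.000509), and in Hoxb7 pulldown the difference of 0.25 ± 0.16 did not pass (0.151).

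The 2 partners of the basolateral channel stood on opposite sides. Kcnj10 ranged from 99.4 to 194 CPM in total RNA (median 136), from 123 to 352 in Hoxb7 pulldowns (median 215) and from 155 to 419 in Atp6b1v1 pulldowns (median 241). It was 1.73-fold higher in the Hoxb7 pulldown (log2 fold change 0.79 ± 0.13, adjusted p = 3.29e-07) and 2.12-fold higher in the Atp6b1v1 pulldown (1.08 ± 0.12, adjusted p = 1.01e-10). Kcnj16 ranged from 663 to 1019 CPM in total RNA (median 848), from 231 to 765 in Hoxb7 pulldowns (median 439) and from 216 to 709 in Atp6b1v1 pulldowns (median 459). It was 1.78-fold lower in the Hoxb7 pulldown (-0.83 ± 0.14, adjusted p = 1.01e-06) and 1.81-fold lower in the Atp6b1v1 pulldown (-0.85 ± 0.13, adjusted p = 3.18e-07). Within series A, B and C, the Hoxb7 values were 1.20, 0.56 and 0.25 for Kcnj10 (adjusted p = 0.38 in C) and -0.55, -0.96 and -1.24 for Kcnj16, and the Atp6b1v1 values 1.1, 0.99 and 1.20 and -0.72, -1.12 and -0.87, of which all but the one named passed.

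Among the pump genes, Atp1b1 was the most abundant, with 3650.4 to 4695 CPM in total RNA, 2330 to 3349 in Hoxb7 and 2311 to 3435 in Atp6b1v1 pulldowns. No control pulldown reached the level of a total RNA library. The differences were -0.51 ± 0.07 and -0.43 ± 0.07 on the log2 scale (adjusted p = 1.22e-08 and 1.88e-07), and within series A, B and C -0.39, -0.49 and -0.85, and -0.41, -0.46 and -0.47. Fxyd2 had 1179 to 1822 CPM in total RNA (median 1561), 207 to 320.2 in Hoxb7 and 217 to 368 in Atp6b1v1 pulldowns, and was 5.53-fold and 5.25-fold lower (-2.47 ± 0.09, adjusted p = 1.31e-28; -2.39 ± 0.08, adjusted p = 6.36e-29). Within the series the Fxyd2 values were -2.31, -2.51 and -2.73, and -2.29, -2.21 and -2.66, and all of these passed. Atp1b3, another beta subunit, was also lower in both pulldowns (-0.45 and -0.57). Atp12a was higher in pulldown, by 1.19 ± 0.30 in Hoxb7 (adjusted p = 0.000586) and 2.11 ± 0.29 in Atp6b1v1 (adjusted p = 1.16e-08), although its level was low, at 0.172 to 2.08 CPM in total RNA, 0.797 to 3.21 in Hoxb7 and 0.678 to 6.00 in Atp6b1v1 pulldowns. Within the series it was 1.90, 1.42 and 0.69 in Hoxb7 (adjusted p = 0.18 in C) and 1.91, 2.52 and 1.63 in Atp6b1v1 pulldown.

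Fxyd4 differed between the drivers. It had 29.1 to 66.9 CPM in total RNA (median 46.6), 6.98 to 30.1 in Hoxb7 pulldowns (median 17.7) and 4.16 to 7.93 in Atp6b1v1 pulldowns (median 5.81), so that all but 1 of the Hoxb7 pulldowns exceeded every Atp6b1v1 pulldown. It was lower than in total RNA in both (log2 fold change -1.32 ± 0.15 and -2.94 ± 0.16, adjusted p = 1.32e-10 and 6.43e-21; -0.62, -1.36 and -2.70, and -2.69, -2.87 and -3.17 within series A, B and C) and 3.07-fold lower in Atp6b1v1 than in Hoxb7 pulldown (-1.62 ± 0.17, adjusted p = 9.21e-10). Within series A, B and C the last difference was -2.07 (adjusted p = 1.62e-06), -1.51 (0.000619) and -0.47 (0.295), and series C holds 2 Hoxb7 pulldowns, both female. Principal cell markers moved with it, with 4 of 7 lower in Atp6b1v1 than in Hoxb7 pulldown and summed levels of 566 to 1055 against 1134 to 3615 CPM, and their part in the result was not tested.

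Of the 8 genes, 7 passed the test between Hoxb7 pulldown and total RNA, where 66.6% of all genes passed, and 8 passed between Atp6b1v1 pulldown and total RNA, where 63.8% passed. Between the pulldowns 1 passed (Fxyd4), against 9.93% of all genes. The other 7 differed by -0.21 (Kcnj1) to 0.92 (Atp12a, SE 0.34, adjusted p = 0.0798) between the drivers, with Kcnma1 at 0.50 ± 0.18 (adjusted p = 0.0714). In males alone Kcnma1 (0.83, adjusted p = 0.00151) and Kcnj1 (-0.60, adjusted p = 0.0237) passed as well. Per kilobase of exon, the order of levels in both control pulldowns was Atp1b1, Fxyd2, Kcnj16, Kcnj1, Kcnj10 and Fxyd4. In Hoxb7 pulldown these were at 1091 ± 133 CPM per kb (SD), 291 ± 37.3, 116 ± 37.6, 114 ± 34.7, 43.4 ± 13.2 and 10.7 ± 4.25. Kcnma1 and Atp12a followed, both under 1, in this order in Hoxb7 and in the reverse order in Atp6b1v1 pulldown. Neighbours Kcnj16 and Kcnj1, and Kcnma1 and Atp12a, did not differ beyond their spread. In total RNA Fxyd2 came first (1663 ± 159 CPM per kb) and Atp1b1 next (1594 ± 113), also within their spread, and Fxyd4 (27.3 ± 5.83) lay within the spread of Kcnj10 (25.7 ± 4.84).

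Gene length moved with these differences. Over 13522 genes with a mean of at least 1 CPM and an annotated exon length (96.6% of 14001), the median log2 fold change of Hoxb7 pulldown against total RNA was -1.88 for genes with exons of up to 1 kb, -0.86 at 1 to 2 kb, -0.08 at 2 to 4 kb, 0.49 at 4 to 8 kb and 0.89 above 8 kb. The Atp6b1v1 values ran from -1.81 to 0.84 over the same classes. Fxyd2, with 0.931 kb of exon, and Fxyd4, with 1.66 kb, are the shortest of the 8 genes. In Hoxb7 pulldown 36.8% of the genes of its length class lay below Fxyd2 and 35.8% below Fxyd4, and in Atp6b1v1 pulldown 36.1% and 6.81%. Atp12a (3.95 kb) lay above 96.0% of its class in Hoxb7 pulldown and was 2.11 against a class median of -0.04 in Atp6b1v1 pulldown. Kcnma1 (12.9 kb) lay below its class median in both, at 0.25 against 0.89 in Hoxb7 and 0.75 against 0.84 in Atp6b1v1 pulldown. Kcnj10 (5.41 kb) lay above its class median in both, at 0.79 against 0.49 and 1.08 against 0.49. Between the drivers the class medians ran only from 0.03 to -0.06. The part of length, and of the lower proximal tubule and thick ascending limb markers, in the differences from total RNA was not tested.

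**Figure D2:**
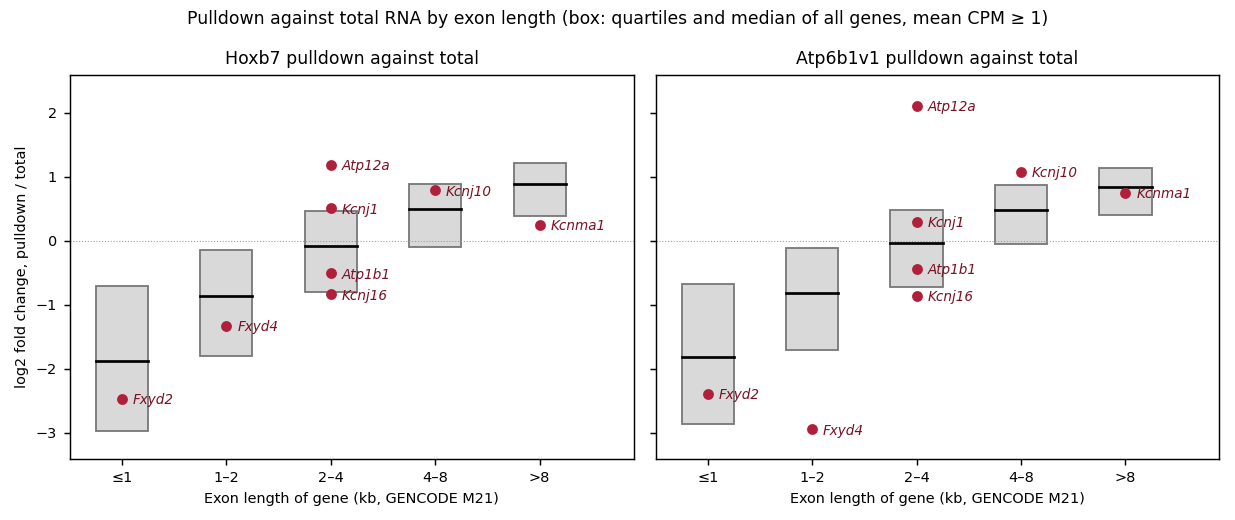
log2 fold change of control pulldown over total RNA (vertical) by exon length class in kb (horizontal), for Hoxb7 (left) and Atp6b1v1 (right); grey boxes span the quartiles of all genes with a mean of at least 1 CPM, the black line is their median and red points are the 8 genes. The class medians rise from -1.88 to 0.89 in Hoxb7, Fxyd2 lies inside its box in both panels, and Atp12a lies above its box in both.

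Between the sexes of the control mice, 1 of the 8 genes passed, where 30.3% of all genes did. Kcnma1 was 1.42-fold higher in males than in females over the 42 libraries (log2 fold change 0.51 ± 0.13, adjusted p = 0.00206), with 0.60 (adjusted p = 0.0288) in series A, 0.40 (0.248) in B and 0.51 (0.0653) in C. The control pulldowns and total RNA libraries match in driver, sex, age and series, so both may come from the same 21 mice, in which case p-values over the 42 libraries count mice more than once. The difference was 0.55 in total RNA alone (adjusted p = 0.0246) and did not pass among pulldowns alone (0.40, adjusted p = 0.191) or in mice of 5.5 months alone (0.30, adjusted p = 0.0732). The 3 male Atp6b1v1 pulldowns of 3 months had 14.3, 12.7 and 16.4 CPM, against 5.28 to 13.1 in the Atp6b1v1 pulldowns of 5.5 months. All 3 are in series C, whose only other Atp6b1v1 pulldown is a female of 5.5 months. Age, series and sex cannot be told apart here. In the Hoxb7 pulldowns Fxyd4 had 20.1 to 30.1 CPM in the 4 males and 6.98 to 15.3 in the 4 females of 5.5 months, which do not overlap. With the control Hoxb7 females of 3 months included, Fxyd4 overlapped between the sexes, and the Hoxb7 pulldowns of series C were all female. Over all 42 libraries the Fxyd4 difference between the sexes was 0.09 ± 0.12 (adjusted p = 0.622). At 5.5 months principal cell markers moved with Fxyd4, at 2779 to 3615 CPM in the Hoxb7 males and 1134 to 2566 in the Hoxb7 females, and their part was not tested.

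After volume depletion Kcnj1, Kcnj10 and Kcnj16 fell in the Hoxb7 pulldowns of males. In the 4 control male Hoxb7 pulldowns Kcnj1 was at 499, 537, 374 and 419 CPM, in the 4 iAKI males at 353, 248, 353 and 351, and in the 3 vAKI males at 176, 102.8 and 149.6. All vAKI values were below all others. Kcnj1 fell 3.19-fold in vAKI (log2 fold change -1.67 ± 0.22, adjusted p = 6.46e-06), and the iAKI difference of -0.47 ± 0.20 did not pass (adjusted p = 0.168), although the 4 iAKI libraries lay below the 4 controls. Within series A, which holds 2 of these controls, the iAKI value was -0.67 and passed (adjusted p = 0.0233), and the vAKI value was -1.85.

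Kcnj10 had 327, 352, 184 and 201 CPM in the control males, 348, 278, 351 and 291 in iAKI and 169, 117 and 146 in vAKI. Kcnj16 had 561, 765, 425 and 491 CPM in the controls, 600.5, 578, 625.1 and 688 in iAKI and 194, 212 and 226 in vAKI. For both partners of the basolateral channel the vAKI males lay below every control and every iAKI male. Kcnj10 fell 1.83-fold (-0.88 ± 0.23, adjusted p = 0.00422; -1.22 within series A) and Kcnj16 2.65-fold (-1.41 ± 0.26, adjusted p = 0.000176; -1.64 within series A). Neither passed in iAKI (0.27 ± 0.21 and 0.17 ± 0.23). With Kcnj1 and Fxyd4, 4 of 8 members passed in vAKI Hoxb7 males, where 35.5% of all genes passed. The share of all genes without overlap was not counted, here or for the other groups.

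In the Atp6b1v1 pulldowns of males Kcnj10 and Kcnj16 fell in vAKI as well, and their vAKI responses differed from those in Hoxb7 by 0.05 ± 0.30 and 0.72 ± 0.34, neither of which passed. Kcnj10 had 340.5, 228, 337 and 216 CPM in control males, 521, 375 and 282 in iAKI and 142, 164, 164 and 155 in vAKI, without overlap between vAKI and the rest, and fell 1.78-fold (-0.83 ± 0.21, adjusted p = 0.0099). Kcnj16 had 602.5, 449.9, 459 and 303 CPM in controls, 723, 553 and 403 in iAKI and 350.1, 372, 197 and 193 in vAKI, which overlapped the controls, and its fall of -0.69 ± 0.23 passed narrowly (adjusted p = 0.0455). Kcnj1 had 388, 296, 363 and 219.7 CPM in controls, 573, 573 and 312 in iAKI and 244, 222, 217 and 219 in vAKI, and neither difference passed (0.61 ± 0.21, adjusted p = 0.0761, and -0.47 ± 0.20, 0.116). Within series A the vAKI value of Kcnj16 was -0.55 (adjusted p = 0.0737), and its call was lost without control Atp6b1v1 male 6, 9 or 10 or vAKI Atp6b1v1 male 6 or 7 (adjusted p = 0.0765 to 0.187). It was lost by less without any of several Hoxb7 males, which enter the fit only through the spread (0.0503 to 0.0541). The Kcnj10 value within series A was -0.90 and passed (adjusted p = 0.0155), and Kcnj1 passed there in iAKI (0.73, adjusted p = 0.0316).

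**Figure D3:**
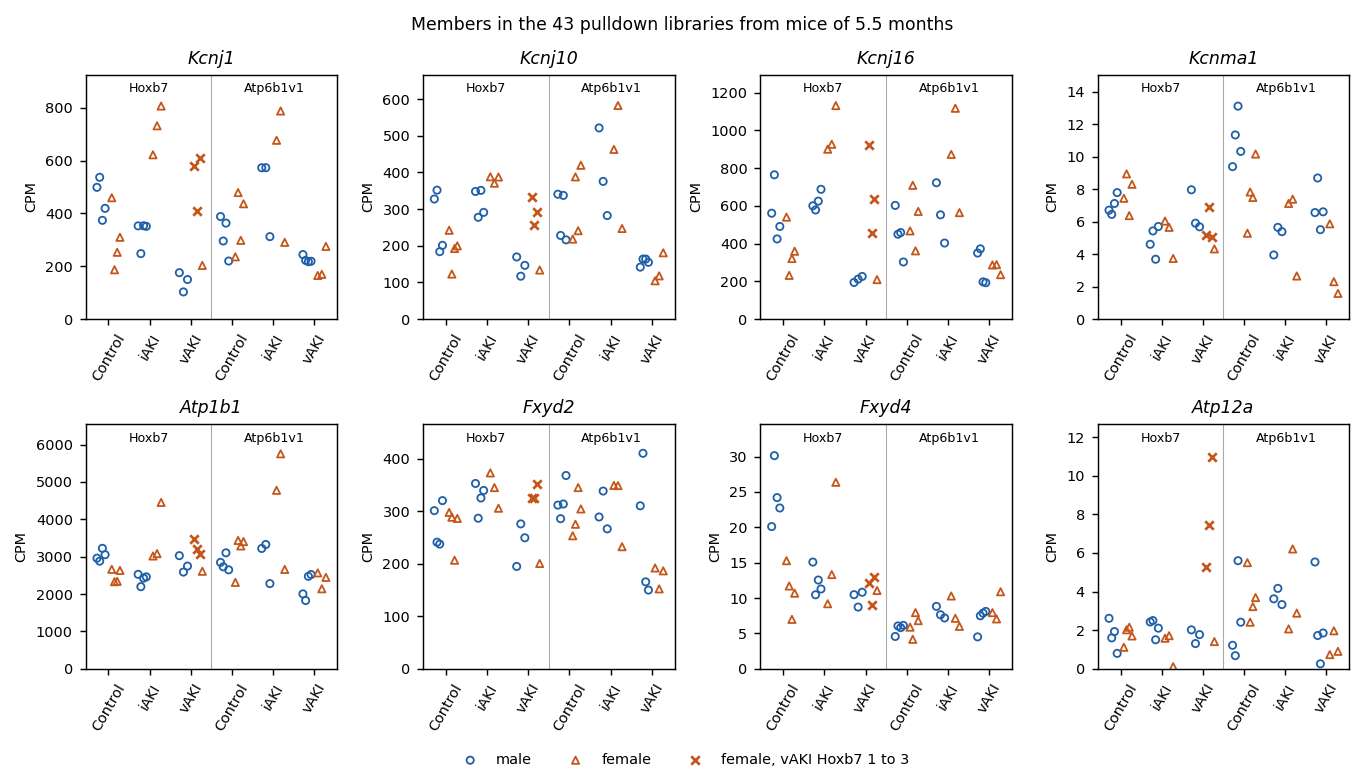
CPM (linear axis from 0) of the 8 genes in 43 pulldowns, all of 5.5 months of age, by driver and treatment; circles are males, triangles females, and crosses the vAKI Hoxb7 females 1 to 3. Kcnj1 in vAKI lies at 102.8 to 176 CPM in Hoxb7 males and at 408 to 610 in the 3 crossed females, and Fxyd4 in Hoxb7 males lies at 20.1 to 30.1 in controls and 8.72 to 15.1 in both injuries.

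Between the injuries Kcnj1, Kcnj10 and Kcnj16 separated in both drivers. In males Kcnj1 was lower in vAKI than in iAKI by -1.20 ± 0.22 in Hoxb7 (adjusted p = 0.000221) and -1.08 ± 0.21 in Atp6b1v1 pulldown (0.000604). Kcnj10 was lower by -1.14 ± 0.23 and -1.31 ± 0.22 (adjusted p = 0.000521 and 0.000156), and Kcnj16 by -1.57 ± 0.26 and -0.98 ± 0.24 (6.63e-05 and 0.00401). These were the only members to pass, 3 of 8 in each driver, where 33.3% and 29.3% of all genes passed. The values within series A were -1.18, -1.12 and -1.55 in Hoxb7 and -1.29, -1.54 and -0.81 in Atp6b1v1 pulldown, and all passed.

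Markers of the thick ascending limb, which also expresses Kcnj1, moved with Kcnj1, Kcnj10 and Kcnj16. Their sum (Umod, Slc12a1, Cldn16, Ptger3) was 1387 to 2393 CPM in control Hoxb7 males and 791 to 875 in vAKI males, and 3 of 4 fell. In Atp6b1v1 males it was 1023 to 2053 CPM in controls and 900.5 to 1041 in vAKI, and 2 of 4 fell. The 3 markers of the distal convoluted tubule summed to 259 to 458 CPM in control Hoxb7 males and 152 to 213 in vAKI males, and 1 of 3 fell. In Atp6b1v1 males they summed to 358 to 695 CPM in controls and 133 to 224 in vAKI, and 2 of 3 fell. Principal cell markers summed to 2779 to 3615 CPM in control Hoxb7 males, 1163 to 1252 in vAKI and 1062 to 1302 in iAKI. In Atp6b1v1 males their sums overlapped, at 840 to 862 CPM in controls and 716 to 905 in vAKI. The part of these segments and cells in the fall of the 3 channel genes was not tested.

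In Hoxb7 females Kcnj1, Kcnj10 and Kcnj16 rose after ischemia. Kcnj1 had 459, 187, 253 and 309.6 CPM in the 4 control females and 622, 732 and 806 in the 3 iAKI females, which lay above every control, as they did for Kcnj10 (123 to 242 against 371 to 388) and Kcnj16 (231 to 540.3 against 901 to 1132). The log2 fold changes were 1.24 ± 0.31, 1.00 ± 0.28 and 1.43 ± 0.32 (adjusted p = 0.00979, 0.0187 and 0.00528), 3 of 8 members where 13.4% of all genes passed. All 3 calls were lost without iAKI Hoxb7 female 3, with adjusted p = 0.0806, 0.0922 and 0.0549, that of Kcnj10 also without control Hoxb7 female 6 (0.079), and none passed within series A (0.67, 0.67 and 0.88), which holds 1 of the control females. The response of Kcnj1 differed between the sexes by 1.72 ± 0.43 (adjusted p = 0.0125), and without female 3 by 1.63 (0.0616). Thick ascending limb markers moved along, at 981 to 2408 CPM in control and 3143 to 4254 in iAKI females, and 3 of 4 rose. Distal convoluted tubule markers summed to 137 to 638 and 656 to 720 CPM. Sums overlapped for the proximal tubule (1398 to 3819 and 2624 to 4464), principal cells (1134 to 2566 and 1541 to 3081) and intercalated cells (611 to 1296 and 781 to 906). The part of these segments and cells was not tested. Kcnma1 did not rise with Kcnj1, Kcnj10 and Kcnj16, at 6.36 to 8.93 CPM in the control and 3.73 to 6.03 in the iAKI females (-0.61 ± 0.30, adjusted p = 0.17). The rectifier Kcnj8 fell (-1.73 ± 0.48, adjusted p = 0.0161).

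The vAKI Hoxb7 females split. Kcnj1 was at 578, 408 and 610.3 CPM in females 1, 2 and 3 and at 202.9 in female 5, Kcnj10 at 334, 256 and 293 against 134, and Kcnj16 at 925, 455 and 639 against 209. Female 5 alone lay at the low level of the vAKI males or near it. With all 4 females no member passed against control (0 of 8, and 0.274% of all genes), and DESeq2 called 0 of 8 as well, while at an unadjusted p under 0.05 Kcnj16 (0.61) and Atp12a (1.84) did. Without females 1 to 3, which leaves 1 vAKI female whose spread is taken to be that of the other groups, Kcnj1 was at -0.57, Kcnj10 at -0.50 and Kcnj16 at -0.79, and none passed (adjusted p = 0.517, 0.552 and 0.291). The difference between the sexes passed for Kcnj1 (2.24 ± 0.44), Kcnj10 (1.30 ± 0.39), Kcnj16 (2.02 ± 0.44) and Fxyd4 (1.29 ± 0.36), 4 of 8 where 16% of all genes passed. The call of Kcnj10 was lost without vAKI female 1 or 3 or control female 6 (adjusted p = 0.0564 to 0.0671). Without females 1 to 3 these were 1.11, 0.38, 0.62 and 1.27, and none passed (adjusted p = 0.538 to 0.888).

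In Atp6b1v1 females volume depletion lowered Kcnj10 (218 to 419 CPM in 4 controls, 104.4 to 181 in 3 vAKI females) and Kcnj16 (361 to 709 against 235 to 288), in both cases without overlap. The log2 fold changes were -1.23 ± 0.30 and -0.95 ± 0.33 (adjusted p = 0.00236 and 0.028), and the call of Kcnj16 was lost without any of the vAKI females 3, 4 and 5 or control females 8 and 13 (0.0557 to 0.104). With Kcnma1 and Fxyd2, 4 of 8 members passed, where 26.4% of all genes passed. Kcnj1 was at 165, 169 and 275 CPM in vAKI and 236 to 479 in controls (-0.83 ± 0.32, adjusted p = 0.0528; 0.0353 in the fit without vAKI Hoxb7 females 1 to 3). Thick ascending limb markers summed to 1295 to 2188 CPM in these controls and 762 to 1293 in vAKI, and 1 of 4 fell. Intercalated cell markers summed to 1454 to 1884 and 905 to 1218 CPM, and 3 of 7 fell. The part of either in these falls was not tested. In iAKI no member passed in Atp6b1v1 females (0 of 8, and 10.4% of all genes), DESeq2 called 0 of 8 as well, and at an unadjusted p under 0.05 Kcnj1, Kcnj16 and Atp1b1 did, at 0.67, 0.67 and 0.48. The sexes could not be separated in this driver: no gene of the table passed for either injury, and 676 and 1756 genes had an unadjusted p under 0.05, while DESeq2 called 1 and 45.

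**Figure D4:**
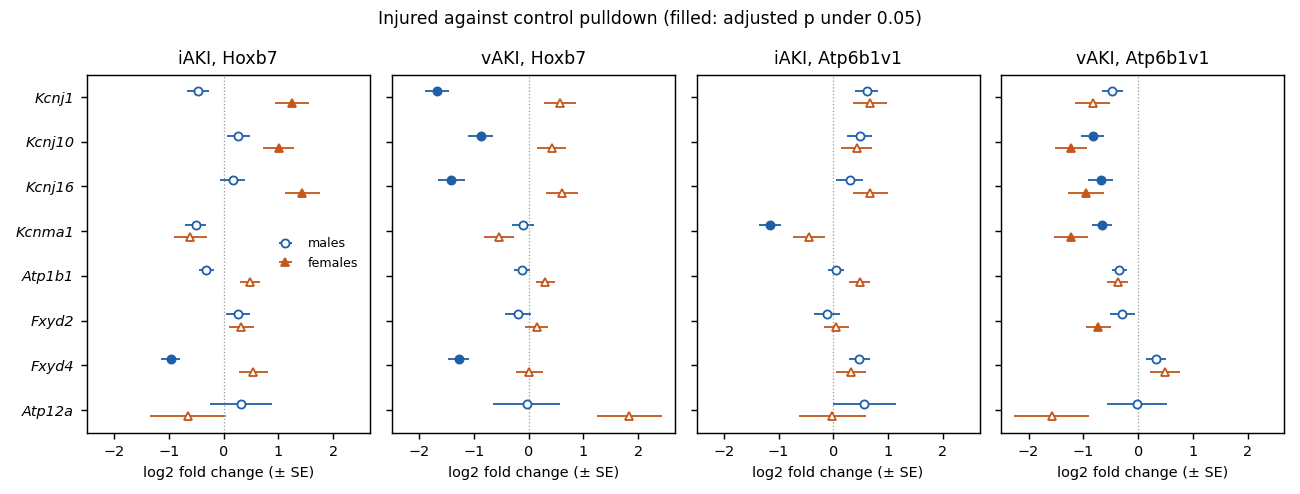
log2 fold change of injured over control pulldown (horizontal, ± SE) for the 8 genes in each driver and injury; blue circles are males, orange triangles females (with vAKI Hoxb7 females 1 to 3 included), and filled symbols passed at an adjusted p under 0.05. Kcnj1, Kcnj10 and Kcnj16 lie at -1.67, -0.88 and -1.41 in vAKI Hoxb7 males and at 1.24, 1.00 and 1.43 in iAKI Hoxb7 females.

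The BK channel gene Kcnma1 fell in the Atp6b1v1 pulldowns of males. Its values were 9.38, 11.3, 13.1 and 10.3 CPM in control males, 3.94, 5.64 and 5.38 in iAKI and 6.55, 8.68, 5.50 and 6.60 in vAKI. No injured male reached the lowest control. It fell 2.23-fold in iAKI (-1.15 ± 0.20, adjusted p = 0.0016), the only one of the 8 members to pass there, where 8.51% of all genes passed, and 1.59-fold in vAKI (-0.67 ± 0.18, adjusted p = 0.0161), where 3 of 8 passed, against 14.6% of all genes. Within series A the iAKI value was -1.13 (adjusted p = 0.00869) and the vAKI value -0.44 (0.322). The vAKI call was also lost without vAKI Atp6b1v1 male 6 (adjusted p = 0.0661) or control male 10 (0.0613). Intercalated cell markers summed to 1135 to 1548 CPM in control, 897 to 2200 in iAKI and 696 to 1107 in vAKI Atp6b1v1 males, with 1 of 7 higher in iAKI and 3 of 7 lower in vAKI, and their part in the fall of Kcnma1 was not tested.

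In vAKI Atp6b1v1 females Kcnma1 was at 5.86, 2.30 and 1.58 CPM, against 5.28 to 10.2 in 4 controls, and fell by 1.23 on the log2 scale (SE 0.31, adjusted p = 0.00375). The intercalated cell markers, lower in the same females as given above, were not tested for their part in it. In iAKI females it was at 7.11, 7.38 and 2.65 CPM and did not pass (-0.44 ± 0.30). In Hoxb7 males it was at 6.44 to 7.78 CPM in controls, 3.68 to 5.70 in iAKI and 5.68 to 7.95 in vAKI, and the iAKI difference of -0.51 ± 0.18 did not pass (adjusted p = 0.1), although the groups do not overlap. The 2 drivers' iAKI responses differed by -0.64 ± 0.27 (adjusted p = 0.147). Of the partners of the BK pore, Kcnmb4 and Lrrc26 averaged 0.0327 and 0.162 CPM over the 69 libraries and passed in none of the 4 male comparisons with controls.

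Fxyd4, the collecting duct regulator of the pump, fell in injured Hoxb7 males. It was at 20.1, 30.1, 24.2 and 22.7 CPM in controls, 15.1, 10.46, 12.5 and 11.3 in iAKI and 10.47, 8.72 and 10.8 in vAKI. Every injured male lay below every control male. The fall was 1.95-fold in iAKI (-0.96 ± 0.18, adjusted p = 0.00261; -1.03 within series A) and 2.42-fold in vAKI (-1.27 ± 0.19, adjusted p = 2.74e-05; -1.32 within series A). In iAKI it was the 1 member of 8 to pass, where 6.13% of all genes passed, and in vAKI it was 1 of 4, where 35.5% of all genes passed.

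In Hoxb7 females Fxyd4 did not pass. It was at 6.98 to 15.3 CPM in controls, at 9.19, 13.3 and 26.4 in iAKI (0.54 ± 0.26) and at 9.08 to 13.0 in vAKI (0.02 ± 0.25). The sexes' iAKI responses differed by 1.51 ± 0.36 (adjusted p = 0.0103), and without iAKI female 3 by 0.96 (0.116). Over both sexes the iAKI value was -0.33 (adjusted p = 0.44) and the vAKI value -0.71 (0.0319), or -0.79 (0.0247) without vAKI Hoxb7 females 1 to 3. The principal cell markers fell in the same males, from 2779 to 3615 CPM in controls to 1062 to 1302 in iAKI and 1163 to 1252 in vAKI, with 6 and 7 of 7 passing, and their part in the fall of Fxyd4 was not tested.

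In Atp6b1v1 males Fxyd4 was at 4.51 to 8.82 CPM in all groups and did not pass (0.47 ± 0.19 in iAKI, adjusted p = 0.13, and 0.32 ± 0.18 in vAKI, 0.259). The difference of the drivers' responses passed for Fxyd4 in iAKI (1.44 ± 0.26, adjusted p = 0.00384) and vAKI (1.59 ± 0.26, adjusted p = 0.00171), and for Kcnj1 (1.08 ± 0.29, adjusted p = 0.0251, and 1.20 ± 0.29, 0.0203). That made 2 of 8 members in each injury, where 7.79% and 4.2% of all genes passed. Within series A the values were 1.66 and 1.5 for Fxyd4 and 1.40 and 1.29 for Kcnj1, and all 4 passed. With both sexes together none passed for either injury (Fxyd4 0.73 and 1.08, Kcnj1 0.35 and -0.19), and none without vAKI Hoxb7 females 1 to 3 (Fxyd4 0.74 and 1.17, Kcnj1 0.33 and 0.63, the last with adjusted p = 0.508). The Kcnj1 call in iAKI was lost without iAKI Atp6b1v1 male 1 or 4, control Hoxb7 male 3 or control Atp6b1v1 male 9 or 11 (adjusted p = 0.053 to 0.0854) and that in vAKI without either vAKI Hoxb7 male 6 (0.0773) or 7 (0.0517).

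The pump's beta subunit and Fxyd2 passed in few comparisons. In males Atp1b1 ranged from 2197 to 3224 CPM in the Hoxb7 groups and from 1827 to 3327 in the Atp6b1v1 groups, and no difference from control passed, the largest being -0.34 ± 0.14 in vAKI Atp6b1v1 (adjusted p = 0.0979) and -0.32 ± 0.14 in iAKI Hoxb7 (0.177). In Hoxb7 females Atp1b1 was at 2330 to 2662 CPM in controls and 3018, 3082 and 4453 in iAKI, without overlap (0.48 ± 0.19, adjusted p = 0.0771). Its iAKI response differed between the sexes by 0.82 ± 0.26 (adjusted p = 0.0358), and the call was lost without iAKI female 3 (0.60, adjusted p = 0.2) or control female 6, 9 or 10 (0.05 to 0.0732). Fxyd2 passed in vAKI Atp6b1v1 females alone of the 8 comparisons with control, at 192, 152 and 186 CPM against 253 to 345 in controls (-0.73 ± 0.23, adjusted p = 0.0175; 0.0838 without vAKI female 4). Atp1b3 did not pass in any of the 4 male comparisons with controls.

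Atp12a could be followed with little precision, since its counts ran from 2 to 273 per library in the pulldowns of mice of 5.5 months. In males its difference from control ran from -0.04 to 0.56 on the log2 scale with SE of 0.55 to 0.62, and none passed. Control Atp6b1v1 males varied from 0.678 to 5.60 CPM. Within series A, whose 2 controls were the 2 lowest of these, it was 2.00 in iAKI and 1.91 in vAKI Atp6b1v1 males and passed (adjusted p = 0.01 and 0.0199), so that these calls rest on which controls are used. The vAKI Hoxb7 females 1, 2 and 3 held the highest values among the Hoxb7 pulldowns, at 5.24, 7.46 and 11.0 CPM, against 1.41 in female 5 and 1.11 to 2.15 in controls, and the difference did not pass with all 4 (1.84 ± 0.59, adjusted p = 0.193). Without females 1 to 3 it was -0.30 ± 0.95 (adjusted p = 0.924).

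Of 55 other genes of these channels and pumps, 14 were higher and 20 lower in Hoxb7 pulldown than in total RNA, and 15 and 20 in Atp6b1v1 pulldown. Of all genes, 66.6% and 63.8% passed in these comparisons. The median log2 fold changes of the 55, 0.10 and -0.01, lay beside 0.11 and 0.11 over all genes. Of the 5 other FXYD genes 4 were lower in each pulldown, Fxyd1 with log2 fold changes of -2.94 and -2.52. Between the drivers 8 of the 55 were higher in Atp6b1v1 pulldown and 5 lower, where 9.93% of all genes passed. Among them were Lrrc26, an auxiliary subunit of BK (-2.60, adjusted p = 0.000268), Fxyd5 (1.21) and Kcnk13 (1.45). Between the sexes 6 of the 55 were higher in males and 16 lower, where 30.3% of all genes passed. Among them were Kcnk1, a 2-pore channel (-1.07, adjusted p = 8.97e-13), and Sgk1, the aldosterone-induced kinase that acts on ROMK and the sodium channel (-1.04, adjusted p = 2.6e-05).

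In injured males, 2 of the 55 rose and 4 fell in iAKI of either driver, 7 rose and 7 fell in vAKI Hoxb7 and 5 rose and 4 fell in vAKI Atp6b1v1 pulldown. Of all genes, 6.13% (Hoxb7) and 8.51% (Atp6b1v1) passed in iAKI, and 35.5% and 14.6% in vAKI. The medians of the 55 were -0.04, -0.04, 0.00 and -0.09, beside 0 over all genes in each. In vAKI Sgk1 rose 3.82-fold in Hoxb7 and 4.17-fold in Atp6b1v1 pulldown (log2 fold change 1.93 and 2.06, adjusted p = 3.64e-05 and 0.000104). Kcnk5, an acid-sensitive 2-pore channel, rose by 2.75 and 1.14, and Kcnj8, the Kir6.1 rectifier, by 2.25 and 1.01, while Kcnj2 (Kir2.1) rose by 1.27 in Atp6b1v1 pulldown. Wnk4, a kinase that controls ROMK and the thiazide-sensitive cotransporter, fell by 1.19 on the log2 scale in Atp6b1v1 pulldown (adjusted p = 0.000211) and by 1.14 in Hoxb7 pulldown (9.82e-05), the latter looked up after the former was seen. Atp4b, the beta subunit of the gastric pump, averaged 0.0773 CPM over the 69 libraries, and its value of 4.46 in vAKI Hoxb7 males (adjusted p = 0.0461) rests on few reads. In iAKI Kcnk5 fell by 2.13 in Atp6b1v1 pulldown. In iAKI Hoxb7 females, in which Kcnj1 rose, Sgk1 fell by 2.20 (adjusted p = 0.00415).

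Kcnj1, Kcnj10 and Kcnj16 varied together from library to library. Over the 48 pulldowns, which share driver, treatment, sex and depth differences, Pearson's r of log2 CPM was 0.88 for Kcnj1 with Kcnj10, 0.89 for Kcnj1 with Kcnj16 and 0.87 for Kcnj10 with Kcnj16, and 0.70 for Kcnj1 with Atp1b1. Kcnj1 with Kcnma1 gave -0.03. The plot of the channels shows Kcnj16 against Kcnj1 and Kcnj1 against Per1.

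**Figure D5:**
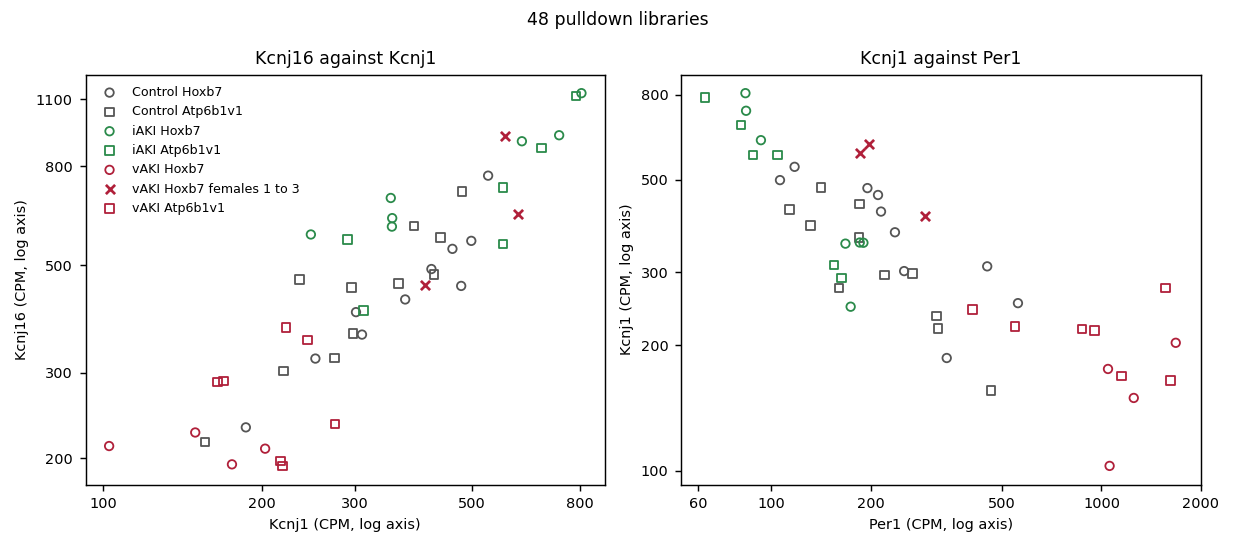
Left, Kcnj16 against Kcnj1, and right, Kcnj1 against Per1, in CPM on log axes, in the 48 pulldown libraries; circles are Hoxb7, squares Atp6b1v1, grey controls, green iAKI, red vAKI, and crosses the vAKI Hoxb7 females 1 to 3. The libraries run along a diagonal at left (r of log2 CPM 0.89), and the 3 crosses lie at 186 to 292 CPM of Per1 at right, with the controls and away from the other vAKI libraries (407 to 1679).

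The genes whose log2 CPM followed each member most closely over all 69 libraries, of 14001 compared, were Pias2 for Kcnj1 (r = 0.89), Gca for Kcnj10 (0.93), Coa5 for Kcnj16 (0.95), Esr1 for Kcnma1 (0.72), Idh3a for Atp1b1 (0.92), Clybl for Fxyd2 (0.98), Upk2 for Fxyd4 (0.94) and Spg20 for Atp12a (0.66). These values span pulldown and total RNA, which most genes separate, and are given as a description.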

How the data were processed

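The authors made TruSeq libraries from poly(A) RNA, sequenced them on an Illumina HiSeq, and, per the labels, used CASAVA 1.8.2, Trimmomatic 0.36, STAR 2.5.3a and HTSeq 0.6.1p2 on mouse build mm10; the annotation was not given in the sources used here. The deposited values are raw read counts per gene, and 0 columns were left unused. Counts of all 69 libraries were read as deposited. Genes with at least 2 counts summed over the libraries (21175 of 24411) were tested with edgeR 4.0.16 (TMM scaling, quasi-likelihood test, Benjamini-Hochberg adjustment over all genes tested, R 4.3.3), and a gene passed at an adjusted p under 0.05. Controls were fitted together with sex as a covariate, male pulldowns of 5.5 months in 6 groups, and both sexes in 12 groups. SE is the log2 fold change divided by the root of the F statistic. CPM are counts per 1000000 of the TMM-scaled library size. DESeq2 1.42.0 and other filters, scalings, sample sets and series were tried as alternatives. The scripts were tested on simulated data.

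Groups and replicate numbers came from the titles. Within a group the libraries are taken as separate mice. Control pulldown and total RNA may come from the same mice, and which library shares a mouse with which is not given. No mouse block was therefore fitted. If mice are shared, p-values of the sex comparison over the 42 control libraries may be too small. For pulldown against total RNA an ignored pairing can move p either way, and this was not tested. The numbers could not be used to pair the samples. In the controls, same-numbered libraries often differ in driver or sex, and males of different treatments are different mice. Correlations of same-numbered residuals, from -0.445 to 0.209 in males and -0.488 to 0.625 in controls, therefore do not decide the pairing. A pairing of controls by driver, sex, age and series was not tested. The text names the 8 genes in every comparison and, of 55 other pathway genes, up to 6 that passed with the largest log2 fold changes (1 or more in size), the partners Atp1b3, Kcnmb4, Lrrc26 and Atp4b, and the most alike genes by correlation. The genes and lists were chosen with earlier results of these data known. Some genes that this rule would name are not reported here.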

Additional observations from a re-analysis of the deposited data

Results flagged for a closer look

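In 64 groups of 4 to 10 libraries tested for a library far from the rest, 3 were found, where chance gives about 5%. Kcnj1 was at 248 CPM in iAKI Hoxb7 male 5, against 351 to 353 in the other 3 males. Fxyd2 was at 207 CPM in control Hoxb7 female 9, against 286 to 298 in the other 3 females of 5.5 months. Atp1b1 was at 2311 CPM in control Atp6b1v1 female 7, against 3287 to 3435.

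The responses of the drivers differed in males by the edgeR test of the difference itself. Kcnj1 was higher in the Atp6b1v1 than in the Hoxb7 response by 1.08 in iAKI and 1.20 in vAKI on the log2 scale, and Fxyd4 by 1.44 and 1.59. None of these passed with both sexes together (Kcnj1 0.35 and -0.19, Fxyd4 0.73 and 1.08). The Kcnj1 calls were also lost without single libraries, as given above.

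The responses of the sexes differed in the Hoxb7 pulldown. In iAKI the female minus male difference was 1.72 for Kcnj1, 0.82 for Atp1b1 and 1.51 for Fxyd4. In vAKI it was 2.24 for Kcnj1, 1.30 for Kcnj10, 2.02 for Kcnj16 and 1.29 for Fxyd4. The vAKI differences did not pass without the vAKI females 1 to 3, and the iAKI differences did not pass without iAKI female 3.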

How the results depend on the processing

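Over 1608 values of single genes under alternatives other than leaving out a library, 1496 kept their direction, and of 539 that had passed 72 no longer did, while 53 passed newly. Counts of the 8 genes that passed moved as follows, and the cause was not tested. Within series C, 4 passed between Hoxb7 pulldown and total RNA (7 in all libraries). In males only, 3 passed between the drivers (1). Between the sexes (1), 0 passed among pulldowns only, at 5.5 months only and within series B, and 3 in total RNA only. For iAKI Hoxb7 males (1), 2 passed with DESeq2, with series as a covariate and within series A, and 0 with both sexes. For vAKI Hoxb7 males (4), 1 passed with both sexes. For iAKI Atp6b1v1 males (1), 2 passed with DESeq2 and with both sexes minus the vAKI Hoxb7 females 1 to 3, and 3 with 25 males and within series A. For vAKI Atp6b1v1 males (3), 5 passed with both sexes minus those females and 1 with only the groups compared. For vAKI against iAKI in Atp6b1v1 males (3), 5 passed with DESeq2 and with both sexes, with or without those females. The driver differences (2 each) fell to 0 with both sexes, with or without those females, and in vAKI to 1 with the replicate block and rose to 4 within series A. In females, iAKI Hoxb7 (3) had 0 with the replicate block, 1 with series as a covariate and 0 within series A, iAKI Atp6b1v1 (0) had 2 within series A, and vAKI Atp6b1v1 (4) had 0 with the replicate block. The sex differences in Hoxb7 (3 in iAKI, 4 in vAKI) had 0 with the replicate block and within series A, and in vAKI 0 without those females.

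Leaving out 1 library at a time gave 1 to 1 passing in iAKI Hoxb7 males, 4 to 4 in vAKI Hoxb7 males, 1 to 2 in iAKI and 1 to 4 in vAKI Atp6b1v1 males, 3 to 3 and 3 to 5 between the injuries in Hoxb7 and Atp6b1v1 males, and 1 to 2 for both driver differences. In females it gave 0 to 4 in iAKI Hoxb7, 0 to 0 in vAKI Hoxb7, 0 to 2 in iAKI and 2 to 5 in vAKI Atp6b1v1, 0 to 4 and 3 to 5 for the sex differences in iAKI and vAKI Hoxb7 and 0 to 0 in Atp6b1v1. In the fit of both sexes only the 21 females were left out in turn.

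Of 112 changes of sign, all but 4 were of values that passed neither before nor after. These 4 were Kcnj1 between Hoxb7 pulldown and total RNA within series C (-0.16), Atp12a in vAKI Atp6b1v1 males within series A (1.91), Atp12a in the iAKI driver difference with the replicate block (-3.72) and Kcnj1 in the vAKI driver difference with both sexes (-0.19, and 0.63 without the vAKI Hoxb7 females 1 to 3). Same-numbered libraries correlated best with their own number in 0 of 3 pairs of iAKI and vAKI Hoxb7 males. These are different mice, and the numbers were not used as a block in the main fits. Depth limits Atp12a most, with 2 to 273 counts per pulldown of 5.5 months.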

Other observations

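In the control pulldowns the level of Kcnj1 followed Per1, a clock gene, in the opposite direction and Slc12a1, the sodium and chloride carrier of the thick ascending limb, in the same direction. These 18 relations, of 2 genes with the 3 inward rectifiers in 3 sets of libraries, were chosen after the values were seen. The p-values do not account for that choice, so the relations are a description. The permutations also ignored series, and the highest Per1 values of the Hoxb7 controls, 559 and 451 CPM, were both in series C. Over the 10 Hoxb7 pulldowns Per1 and Kcnj1 gave Pearson's r = -0.80 (permutation test, two-sided, p = 0.00511, adjusted p = 0.00836) and Spearman's rho = -0.93 (permutation p = 0.00028), with r = -0.77 without the 2 libraries farthest in Per1 and -0.70 within sexes. Over the 11 Atp6b1v1 pulldowns the values were r = -0.89 (permutation p = 0.00046, adjusted p = 0.00207) and rho = -0.78 (permutation p = 0.00623), with -0.75 without 2 libraries and -0.95 within sexes. In the 21 total RNA libraries they were r = 0.28 (permutation p = 0.213, adjusted p = 0.239) and rho = 0.35 (permutation p = 0.119), with 0.28 without 2 libraries and -0.30 within sexes, where the direction turned. For Kcnj10 and Kcnj16 Per1 gave r = -0.74 and -0.81 in Hoxb7 pulldowns, -0.79 and -0.73 in Atp6b1v1 pulldowns and 0.25 and -0.24 in total RNA. The Atp6b1v1 value of Kcnj16 was -0.39 without 2 libraries.

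Slc12a1 and Kcnj1 gave r = 0.91 in Hoxb7 pulldowns (permutation p = 0.00061, adjusted p = 0.0022), with rho = 0.83 (permutation p = 0.00474) and 0.87 without 2 libraries. In Atp6b1v1 pulldowns they gave r = 0.94 (permutation p = 3e-05, adjusted p = 0.00027), with rho = 0.86 (permutation p = 0.00114) and 0.89 without 2 libraries. In total RNA they gave r = 0.82 (permutation p = 2e-05, adjusted p = 0.00027), with rho = 0.86 (permutation p = 2e-05) and 0.85 without 2 libraries, and 0.43 within sexes. For Kcnj10 and Kcnj16 Slc12a1 gave r = 0.75 and 0.82 in Hoxb7 pulldowns and 0.90 and 0.78 in Atp6b1v1 pulldowns. In total RNA Slc12a1 gave 0.66 for Kcnj10, 0.08 within sexes, and -0.31 for Kcnj16.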
